A study of Mus musculus with 4 samples.

Results

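Histone genes were taken as the protein-coding genes of chromosomes 1 to 19 whose symbol in GENCODE M21 starts with Hist1h, Hist2h, Hist3h, Hist4h, H2af or H3f3. The rule gave 75 genes of 20807 protein-coding genes on those chromosomes. Of these, 67 were clustered genes (6 for H1, 18 for H2A, 18 for H2B, 12 for H3 and 13 for H4) and 8 were genes of histone variants (H2afj, H2afv, H2afx, H2afy, H2afy2, H2afz, H3f3a and H3f3b). The rule itself uses names and positions, not measured values.

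The cells were mouse bone marrow, lin- and c-Kit+ (lineage markers low, stem cell factor receptor present), named LIC by the submitters and grown in medium with IL3, IL6 and SCF. The series title places them in work on acute myeloid leukaemia, but no label used here gives a strain, an oncogene, an age or the number of animals. Cells were exposed 3 times to ultraviolet light of 254 nm at 120 mJ per cm2, which bonds proteins to the RNA they touch, and lysates were sonicated. RNA held by IGF2BP2, YTHDF2 or YTHDC1 was pulled down with a Proteintech antibody, in 1 library per reader, and 1 input library had no antibody. Libraries were made with a stranded mRNA kit and 20 PCR cycles. IGF2BP2 had 7069 peaks, YTHDF2 had 2834 and YTHDC1 had 9963; values of the input library on its own are not analysed here. With 1 library per reader no difference between readers could be tested, and the depth of the libraries is unknown.

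IGF2BP2, YTHDF2 and YTHDC1 are RNA-binding proteins known as readers of N6-methyladenosine (m6A), a methyl mark on adenosine in RNA. IGF2BP2 is known for stabilising its targets, YTHDF2 for cytoplasmic decay, and YTHDC1 for nuclear steps such as splicing and export. Clustered histone genes typically have no introns, are transcribed in S phase, and end their mRNA in a conserved stem-loop bound by SLBP in place of a poly(A) tail. Variant histone genes such as H3f3b and H2afz give ordinary polyadenylated mRNA through the cell cycle. The library kit is sold for mRNA, while the labels name total RNA as the molecule, and how far RNA without a poly(A) tail was captured was not tested.

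A peak counted for a gene when its summit lay in the gene. By this count 11 of 75 histone genes had a peak in the IGF2BP2 list (14.7%, exact 95% binomial interval 7.56 to 24.7%), against 12.8% of all protein-coding genes. For YTHDF2 it was 10 of 75 (13.3%, 6.58 to 23.2%) against 7.20%, and for YTHDC1 18 of 75 (24%, 14.9 to 35.3%) against 19.9%. Each of the 3 intervals holds the share of all genes. The IGF2BP2 and YTHDC1 shares were near that background, and the YTHDF2 background lies just above the lower bound of its interval. In all, 23 histone genes had a peak in at least 1 list (30.7%) and 52 had none. The share of all protein-coding genes with a peak in at least 1 list was not computed, so this count has no background beside it. The lists shared 6 histone genes among all 3 (8%, against 5.02% of all protein-coding genes): Hist1h1d, Hist1h3a, Hist1h3d, H2afj, H2afy and H3f3b. These intervals cover counting error over genes only, and histone genes are copies of each other rather than independent draws.

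A larger share of the variants than of the clustered genes had a peak. Among clustered genes 7, 7 and 13 of 67 had a peak for IGF2BP2, YTHDF2 and YTHDC1 (10.4%, 10.4% and 19.4%). Among variants it was 4, 3 and 5 of 8 (50%, 37.5% and 62.5%). The intervals of the variants were wide, from 15.7 to 84.3% for IGF2BP2, from 8.52 to 75.5% for YTHDF2 and from 24.5 to 91.5% for YTHDC1. With all peaks kept they lie above the 12.8%, 7.20% and 19.9% of all genes. At a fold of at least 5, variants with a peak numbered 3, 3 and 3 for IGF2BP2, YTHDF2 and YTHDC1, beside 7.96%, 3.96% and 14.4% of all genes. With lists of equal length they numbered 2, 3 and 3, beside 5.94%, 7.20% and 7.83%. No interval was computed for these smaller counts, so the excess of the variants is shown only with all peaks kept. The variants include genes with up to 9 exons, and a summit in an intron also counted. The 2 classes are thus unlike in length, and the part of gene length was not tested. Most clustered genes are short and have 1 exon in every annotated transcript (62 of 67; the other 5 are H2B genes), so single-exon protein-coding genes give a second background. Of 1161 such genes, 3.19%, 2.84% and 6.80% had a peak in the IGF2BP2, YTHDF2 and YTHDC1 lists. Of the 63 single-exon histone genes (the 62 clustered genes and H2afx), 7, 7 and 14 had one (11.1%, 11.1% and 22.2%), with intervals of 4.59 to 21.6% for IGF2BP2 and YTHDF2 and 12.7 to 34.5% for YTHDC1. That single-exon background includes the 63 histone genes and 107 olfactory receptor genes, and without both groups the shares were 3.03%, 2.62% and 6.56% of 991 genes. So with all peaks kept the clustered genes stood near all genes in the IGF2BP2 and YTHDC1 lists. The single-exon histone genes then stood above single-exon genes by more than their counting interval in all 3 lists. Transcript levels were not measured in these files, so the part of expression in either comparison was not tested. At a fold of at least 5, clustered genes with a peak numbered 4, 3 and 10 for IGF2BP2, YTHDF2 and YTHDC1, while the share of all genes fell to 7.96%, 3.96% and 14.4%. With lists of equal length they numbered 2 for IGF2BP2 and 3 for YTHDC1, beside 5.94% and 7.83% of all genes. Leaving out peaks of which at least 50% of the 31-base words also occur in another gene, a choice made after seeing the data, left 1, 3 and 3 of the 67 clustered genes. All of those left were H1 genes, since each clustered H2A, H3 and H4 peak shared at least 52.9% of its words. The share of single-exon genes was not recomputed under any of these alternatives. The excess over single-exon genes is therefore shown only with all peaks kept, including those in copied sequence.

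**Figure D1:**
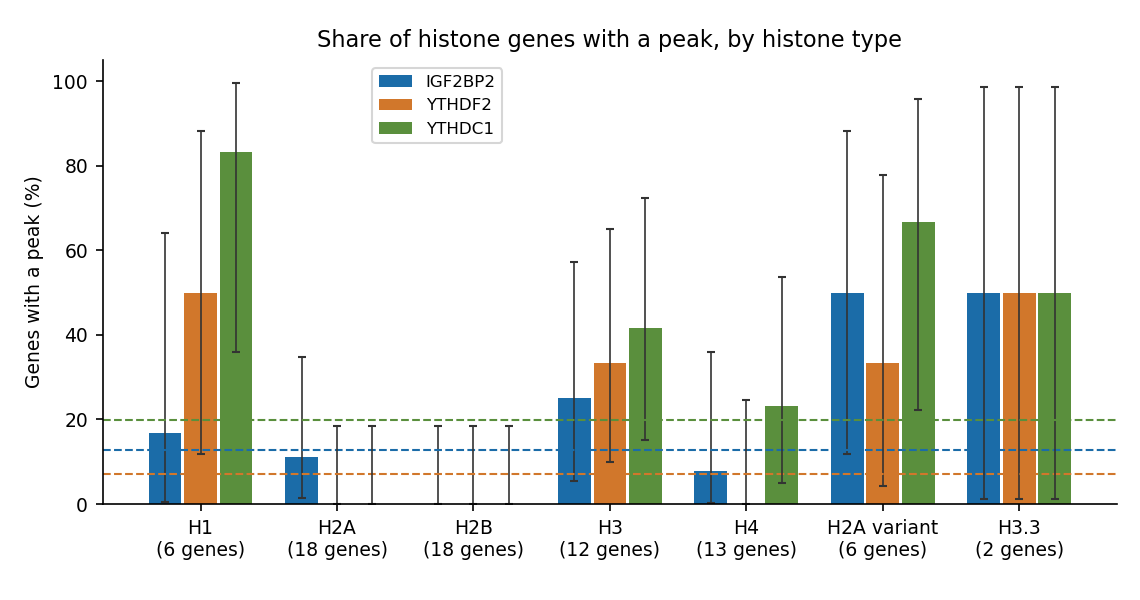
Share of histone genes with at least 1 peak summit (vertical axis, percent), by histone type (horizontal axis) and reader (colours); bars are shares, thin lines exact 95% binomial intervals, and dashed lines the share of all protein-coding genes in the list of the same colour. No H2B gene had a peak, while 5 of 6 H1 genes and 5 of 12 H3 genes had one in the YTHDC1 list.

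By histone type the counts were small and their intervals wide, and they are read beside the 12.8%, 7.20% and 19.9% of all protein-coding genes with a peak for IGF2BP2, YTHDF2 and YTHDC1. H1 genes, which encode the linker histones that bind DNA between nucleosomes, had a peak in 1, 3 and 5 of 6 genes for IGF2BP2, YTHDF2 and YTHDC1. For H3 the counts were 3, 4 and 5 of 12, and for H4 they were 1, 0 and 3 of 13. H2A genes had 2, 0 and 0 of 18. H2B genes had none of 18 in any of the 3 lists, with an exact upper bound of 18.5% in each, which is above the share of all genes for IGF2BP2 and YTHDF2 and below it for YTHDC1. The intervals of H2A, H3 and H4 hold the share of all genes except for YTHDF2 in H3 (9.92 to 65.1%) and YTHDC1 in H2A (0 to 18.5%). For H1 the YTHDF2 and YTHDC1 intervals (11.8 to 88.2% and 35.9 to 99.6%) lie above it. No difference between types was tested. A peak list holds only regions past the caller's threshold, so a gene without a peak is not shown to be unbound.

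H1 genes carried the clustered peaks with the highest pileup, the number of fragments stacked at the summit. In Hist1h1d, which encodes linker histone H1.3, the IGF2BP2 peak had a pileup of 13 and a fold over background of 11.3, the highest fold of any clustered gene in the 3 lists. Its YTHDC1 peak reached a pileup of 27 with a fold of 8.48. Of its 2 YTHDF2 peaks, one had a pileup of 10 with a fold of 4.67 and the other a pileup of 7 with a fold of 6.87. Hist1h1d was thus the only H1 gene with a peak in every list. The stretch common to the IGF2BP2 peak, the first YTHDF2 peak and the YTHDC1 peak is chr13:23555126-23555251 of GRCm38, plus strand, bases 37 to 162 of the coding sequence. It is shown because all 3 lists marked it, and capitals mark GGAC, the core of the favoured m6A sequence.
Hist1h1d: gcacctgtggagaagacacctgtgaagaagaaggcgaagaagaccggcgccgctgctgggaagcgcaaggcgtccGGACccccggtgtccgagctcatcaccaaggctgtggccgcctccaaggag

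Hist1h1c, the gene of H1.2, had a YTHDC1 peak with a pileup of 26 and a fold of 10.2, and a YTHDF2 peak with a pileup of 8 and a fold of 7.54. The 2 peaks did not overlap: their summits lay at bases 165 and 432 of the coding sequence. Hist1h1e, the gene of H1.4, had 2 YTHDC1 peaks, with pileups of 19 and 13 and folds of 6.73 and 5.64. Hist1h1b, the gene of H1.5, had a pileup of 6 in both the YTHDF2 and the YTHDC1 list, with folds of 6.33 and 5.93 and summits 18 bp apart. In Hist1h1a, the gene of H1.1, the YTHDC1 peak had a pileup of 8 and a fold of 7.73 at base 543, the most distal summit of the H1 genes. Hist1h1t, the gene of the testis linker histone, had no peak.

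The highest pileups of the H1 genes stood on a high background. Background here is the value implied by pileup and fold, given over the lowest value of the same list. It was 122 times that floor at the first YTHDF2 and the YTHDC1 peak of Hist1h1d, 86.9 times at the YTHDC1 peak of Hist1h1c, and 104 and 78.2 times at the peaks of Hist1h1e. Over all peaks the median was 1.74, 1.83 and 2.61 times the floor for IGF2BP2, YTHDF2 and YTHDC1. So the pileup of 27 in Hist1h1d gave a lower fold than the pileup of 13 there, whose background was 17.4 times the floor. The part of transcript abundance in the pileup was not tested.

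The YTHDC1 summits of Hist1h1c, Hist1h1d and Hist1h1e fell in the same region of the coding sequence, at bases 165, 182 and 184. The 61 bases around each are shown to let the genes be compared: Hist1h1c at chr13:23738983-23739043, plus strand, Hist1h1d at chr13:23555241-23555301, plus strand, and Hist1h1e at chr13:23622284-23622344, minus strand. Capitals mark the 42 bases that the 3 windows have in common.
Hist1h1c: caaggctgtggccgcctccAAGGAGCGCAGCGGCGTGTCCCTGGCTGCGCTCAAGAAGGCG
Hist1h1d: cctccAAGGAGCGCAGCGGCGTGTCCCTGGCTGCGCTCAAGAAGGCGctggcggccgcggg
Hist1h1e: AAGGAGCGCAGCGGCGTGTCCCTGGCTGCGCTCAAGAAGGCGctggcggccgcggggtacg
Shared letters are a description: a read that lies within the 42 bases could come from any of the 3 genes, and how reads with several places in the genome were treated is not given in the sources used here. The second group of H1 summits, at bases 413 to 448 in Hist1h1b, Hist1h1c, Hist1h1d and Hist1h1e, lay in less similar sequence. There 0 to 34.3% of the 31-base words of a peak also occurred in another gene. The peak of Hist1h1a and both peaks of Hist1h1b shared none.

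Only 2 of the 18 clustered H2A genes had a peak, and both were in the IGF2BP2 list. Hist2h2aa1 had a pileup of 8 and a fold of 8.02 (chr3:96245658-96245795), and Hist2h2aa2 had a pileup of 9 and a fold of 7.32 (chr3:96240047-96240210). Their coding sequences of 390 bases are identical, so 100% of the words of both peaks occurred in another gene and the signal of the 2 copies cannot be told apart. Some words were shared more widely: 21 genes shared at least 1 word with the Hist2h2aa1 peak and 7 with the Hist2h2aa2 peak. Other annotated genes overlap both (Gm20633 and Gm20634 at Hist2h2aa1, Gm20632 at Hist2h2aa2), and the peak lists carry no strand. The sequence of H2B genes, which had no peak, is similarly repetitive: a median of 85.9% of the 31-base words of an H2B coding sequence occurred in another gene, against 88.5% for H2A, 91.1% for H3, 78.5% for H4 and 16.6% for H1.

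H3 genes, which encode the core histone whose tail carries many of the well-known chromatin marks, had 12 peaks in 7 of 12 genes. Hist1h3a had a pileup of 4 in each of the 3 lists, with folds of 4.93, 4.94 and 4.91 for IGF2BP2, YTHDF2 and YTHDC1. In Hist1h3d the pileups were 6, 3 and 5 and the folds 6.83, 3.92 and 5.81 in the same order. Hist1h3i had pileups of 3 and 2 with folds of 3.92 and 2.95 for IGF2BP2 and YTHDF2. These are counts of a few fragments, and the lowest of them, the YTHDF2 peak of Hist1h3i, was above 1.87% of its list by fold.

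The other H3 genes were in 1 list each. YTHDC1 alone marked Hist2h3b with a pileup of 8 and a fold of 8.58, Hist2h3c1 with 7 and 7.17, and Hist1h3e with 7 and 6.02. Hist1h3c had only a YTHDF2 peak, with a pileup of 3 and a fold of 3.96. In contrast to H1, the H3 peaks stood on a low background, with a median of 1.48, 1.24 and 2.61 times the floor for the 3 readers. Gm20628 overlaps Hist2h3b and Gm20634 overlaps Hist2h3c1, so the strand of these peaks was not tested either.

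All 12 H3 summits lay between bases 129 and 267 of the 408-base coding sequence, with a median of 160, and the common part of the 3 peaks of Hist1h3d covers bases 126 to 206 (chr13:23575927-23576007, plus strand). That stretch is shown with the same bases of Hist1h3e (chr13:23562160-23562240, minus strand) and Hist2h3b (chr3:96268819-96268899, plus strand), and capitals mark bases that differ from Hist1h3d.
Hist1h3d: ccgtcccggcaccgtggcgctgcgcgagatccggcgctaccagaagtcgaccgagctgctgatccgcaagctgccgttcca
Hist1h3e: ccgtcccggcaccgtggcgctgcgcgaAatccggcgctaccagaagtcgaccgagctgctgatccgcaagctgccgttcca
Hist2h3b: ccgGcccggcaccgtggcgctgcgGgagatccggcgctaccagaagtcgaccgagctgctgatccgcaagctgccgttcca
Over these 81 bases Hist1h3a, Hist1h3b, Hist1h3c, Hist1h3f, Hist1h3h and Hist1h3i do not differ from Hist1h3d. Of these, Hist1h3a (IGF2BP2, base 192) and Hist1h3c (YTHDF2, base 147) had a summit within the stretch, the summits of Hist1h3i at bases 222 and 262 lay past it, and Hist1h3b, Hist1h3f and Hist1h3h had no peak. Coding sequences of the 12 H3 genes were 93.6 to 100% identical over 66 pairs, with a median of 97.2%. The share of a peak's words that also occurred in another gene ranged from 58.6% in Hist1h3e, through 77.6% for the YTHDF2 peak of Hist1h3a and 85.7% for both peaks of Hist1h3i, to 100% for the other 8 H3 peaks.

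H4 genes had 4 peaks, each in a different gene and in 1 list only. IGF2BP2 marked Hist1h4f with a pileup of 3 and a fold of 3.89. YTHDC1 marked Hist1h4j with a pileup of 5 and a fold of 5.15, Hist1h4n with 4 and 4.84, and Hist1h4i with 3 and 3.87. Their summits lay at bases 116 to 182 of the 309-base coding sequence. All 4 were among the lower folds of their lists, from the 5.54 percentile for Hist1h4f to the 37.1 percentile for Hist1h4j.

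**Figure D2:**
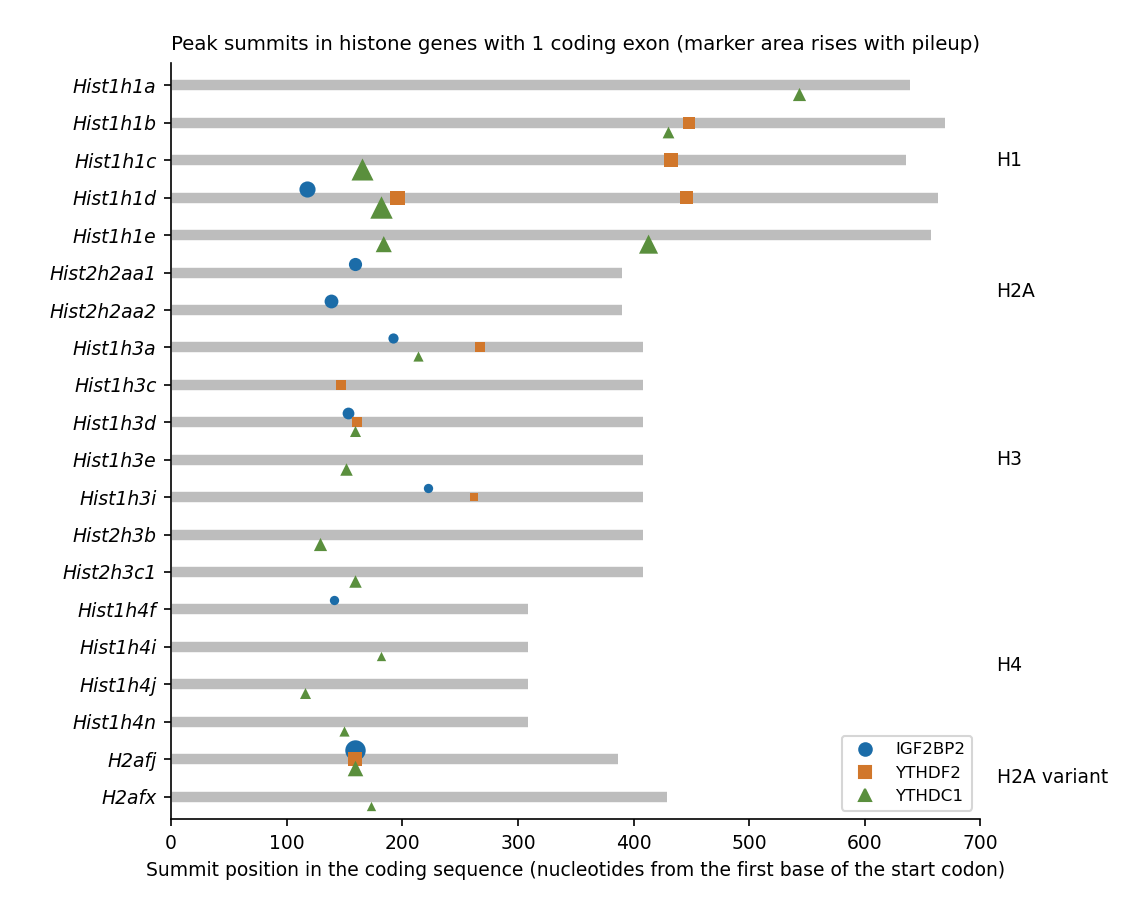
Summit of each peak along the coding sequence (horizontal axis, nucleotides from the first base of the start codon) in the clustered histone genes with a peak and in H2afj and H2afx; grey bars span the coding sequence, colours and shapes give the reader and marker area rises with pileup. H3 summits lie between bases 129 and 267, H1 summits form a group near bases 118 to 196 and a group from base 413 on, and the 3 H2afj summits coincide.

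Of the 8 variants, 5 had a peak and 3 (H3f3a, H2afy2 and H2afv) had none. H2afy, which encodes macroH2A1, an H2A variant with a large non-histone domain known from repressed chromatin, had 17 peaks, of which IGF2BP2 and YTHDF2 gave 3 each and YTHDC1 gave 11. The IGF2BP2 peak over exon 4 had a pileup of 34 and a fold of 28.1, higher than 97.7% of that list and the highest fold of any histone peak. At the same exon YTHDF2 had a pileup of 12 with a fold of 11.9 and YTHDC1 a pileup of 10 with a fold of 8.28. The 3 summits lay within 23 bp of each other, so the readers marked 1 place in different amounts of signal over their own background. Exon 4 is shown because it holds the strongest shared histone peak (chr13:56104302-56104499, minus strand, 198 bases, all coding). It holds no GGAC, so nothing is in capitals. The looser m6A sequence DRACH (D is A, G or T, R is A or G, H is A, C or T) occurs within 50 bases of all 3 summits.
H2afy: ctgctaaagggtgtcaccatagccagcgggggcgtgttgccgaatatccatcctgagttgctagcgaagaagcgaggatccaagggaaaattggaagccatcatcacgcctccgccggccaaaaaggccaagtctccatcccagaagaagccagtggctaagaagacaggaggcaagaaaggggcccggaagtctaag
No 31-base word of the exonic part of these 3 peaks occurred in another gene, in contrast to the H3 peaks. The peaks run into the introns on both sides: of the 273 bases common to the 3, 75 lie outside the exon.

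The other H2afy peaks met at 1 further place, upstream of exon 2. IGF2BP2 had a second coding peak in exon 3 (pileup 12, fold 11.6) and a peak with its summit 33 bases upstream of exon 2 (pileup 7, fold 6.43). YTHDC1 had a summit 2 bases upstream of the same exon, with a pileup of 15 and a fold of 9.65; these peaks overlap by 130 bp and their summits are 31 bp apart. YTHDF2 had one 39 bases upstream of exon 5 (pileup 9, fold 8.38) and one in the 3' UTR (pileup 4, fold 4.56). The largest YTHDC1 pileup of the gene, 30 with a fold of 7.23, lay 0.942 kb from the gene start in the 5' UTR, where the background was 174 times the floor. Of the 11 YTHDC1 summits in H2afy, 6 were intronic and 3 lay in exons of other transcripts of the gene. The 5 intronic summits away from exon 2 had pileups of 2 to 6 and lay 1166 to 7692 bases from the nearest exon of the main transcript. Gm47071 overlaps H2afy at its 3' end, at 1 YTHDF2 and 2 YTHDC1 summits.

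**Figure D3:**
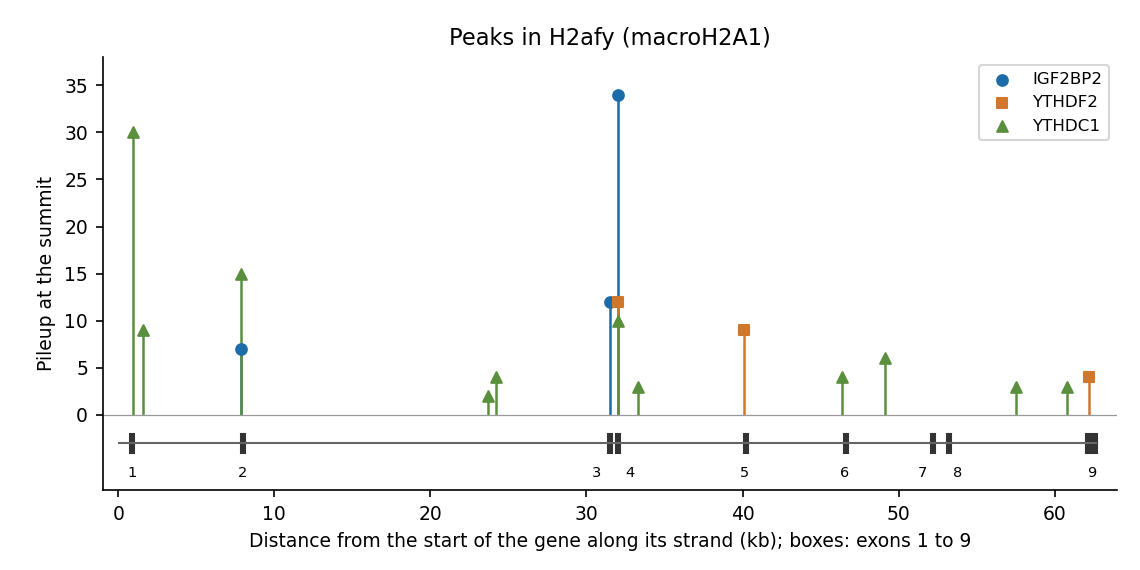
Pileup at the summit (vertical axis, fragments) of the 17 H2afy peaks against distance from the gene start (horizontal axis, kb); colours and shapes give the reader, and boxes below the axis the 9 exons of the main transcript. All 3 readers have a summit at exon 4, with pileups of 34, 12 and 10, and YTHDC1 also has 30 in the first exon.

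H2afj encodes an H2A variant and lies on chromosome 6. Its summit fell on the same base in all 3 lists, base 159 of the 387-base coding sequence. Pileups were 22, 8 and 12 and folds 20.5, 8.21 and 11.2 for IGF2BP2, YTHDF2 and YTHDC1. The IGF2BP2 fold was higher than 95% of its list. The 108 bases common to the 3 peaks (chr6:136808450-136808557, plus strand) are shown because of this coincidence, and they hold no GGAC.
H2afj: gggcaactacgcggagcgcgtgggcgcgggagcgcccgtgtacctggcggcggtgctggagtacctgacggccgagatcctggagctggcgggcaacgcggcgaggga
Between 11.7 and 25.6% of the words of the 3 peaks occurred in another gene, Hist1h2ab being the gene that shared the most.

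H3f3b is 1 of the 2 genes of H3.3, the H3 variant that is put into chromatin outside replication. It had 2 IGF2BP2 peaks (pileups 5 and 4, folds 5.35 and 4.61), 1 YTHDF2 peak (6 and 6.56) and 2 YTHDC1 peaks (10 and 7, folds 9.86 and 6.87). Peaks of all 3 lists overlapped at exon 4, which holds the start codon, although the summits differed by up to 137 bp: the IGF2BP2 summit lay in the coding sequence, while those of YTHDF2 and YTHDC1 lay 8 and 70 bases upstream of the exon. H3f3a, the other H3.3 gene, had no peak in any list. Its coding sequence shares 99.2% of its words with other genes, against 68.8% for H3f3b. The part of shared sequence in the missing peak was not tested.

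H2afz, the gene of H2A.Z, had an IGF2BP2 peak in the 3' UTR (pileup 4, fold 4.51) and a YTHDC1 peak with its summit 94 bases downstream of exon 1 (pileup 22, fold 4.10). The YTHDC1 background there was 243 times the floor, the highest of any histone peak. H2afx, the gene of the variant that is phosphorylated at DNA breaks, had 1 weak YTHDC1 peak with a pileup of 3 and a fold of 3.87 at base 173. H2afx mRNA is known to end either in the stem-loop or in a poly(A) tail, and counting it with the clustered genes left each of the 8 counts it touches within 1.5 times its value.

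**Figure D4:**
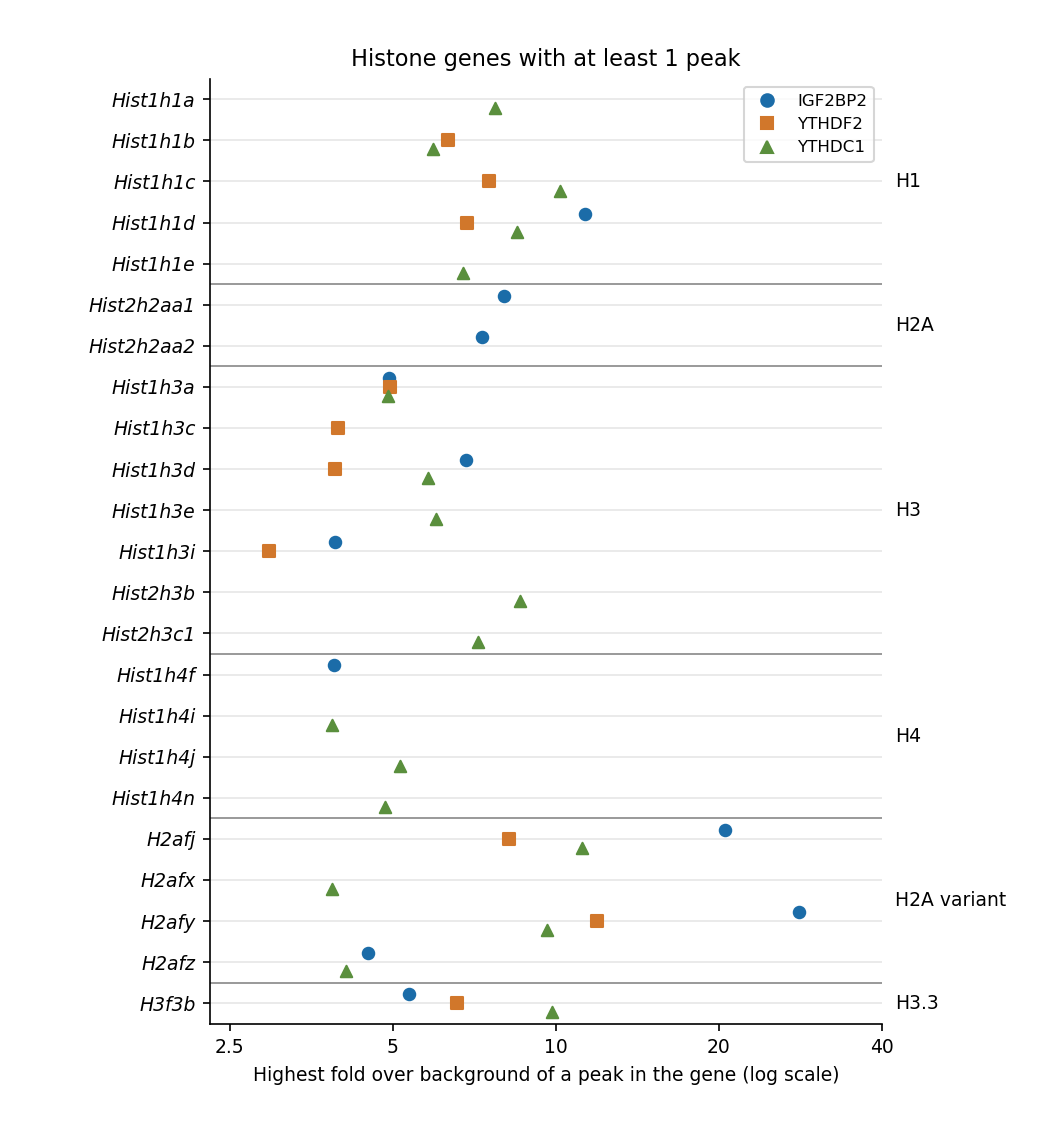
Highest fold over background of a peak (horizontal axis, log scale) in each of the 23 histone genes with a peak, ordered by histone type; colours and shapes give the reader, with a small vertical offset so that equal values can be seen. IGF2BP2 reaches 28.1 in H2afy and 20.5 in H2afj, while every clustered gene stays at or below 11.3.

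Taken over the peaks instead of the genes, histone genes held 14 IGF2BP2, 13 YTHDF2 and 30 YTHDC1 peaks, of which 7, 8 and 14 were in clustered genes. Median folds of histone peaks were 6.63, 6.33 and 5.97, beside 5.92, 5.63 and 6.01 over the whole lists. Above the list's median fold stood 8 of 14, 7 of 13 and 14 of 30, so histone peaks were placed about evenly around the middle of each list. Their background differed more. A background at the floor of the list was found for 1 of 14, 2 of 13 and 1 of 30 histone peaks (7.14%, 15.4% and 3.33%), beside 35.9%, 29.3% and 27.2% of all peaks.

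**Figure D5:**
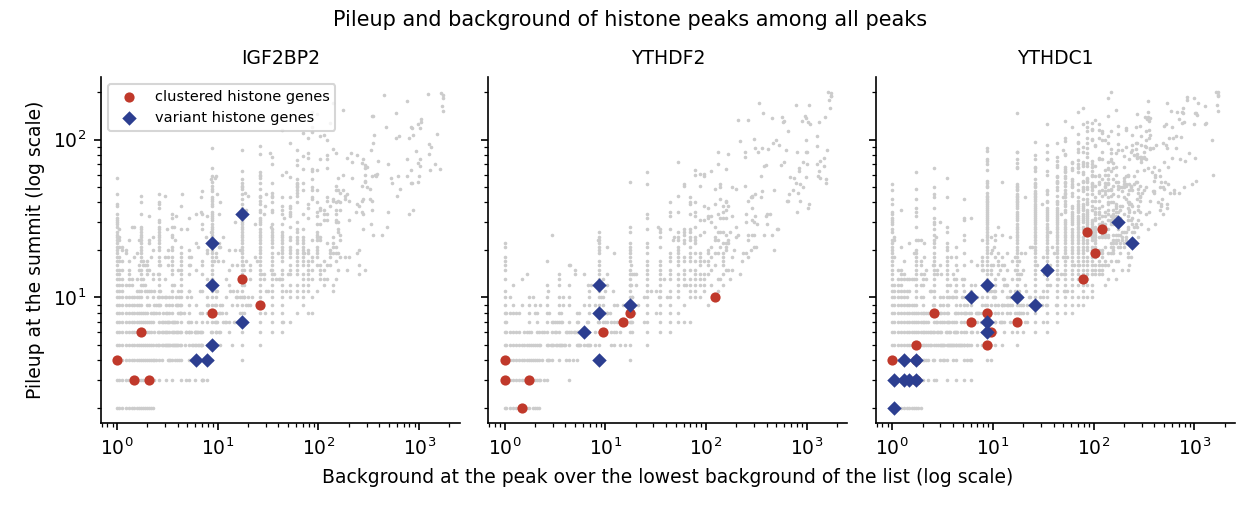
Pileup at the summit (vertical axis, log scale) against background over the lowest background of the list (horizontal axis, log scale) for all peaks (grey), clustered histone genes (red circles) and variant histone genes (blue diamonds), 1 panel per reader. The 4 YTHDC1 peaks of Hist1h1c, Hist1h1d and Hist1h1e sit at 78.2 to 122 times the floor and those of Hist1h1a and Hist1h1b at 8.69 and 9.56 times, while 10 of the 12 H3 peaks sit at or below 2.61 times.

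Readers met at the same places in part of the genes. Peaks of IGF2BP2 overlapped YTHDF2 at 7 places with a median summit distance of 40 bp, IGF2BP2 overlapped YTHDC1 at 7 with 23 bp, and YTHDF2 overlapped YTHDC1 at 7 with 14 bp. As a share of each list's histone peaks, 7 of 14 IGF2BP2 peaks overlapped a YTHDF2 peak (50%, beside 25.7% of the whole list) and 7 of 13 YTHDF2 peaks an IGF2BP2 peak (53.8%, beside 65.6%). For YTHDC1, 22 of 30 histone peaks overlapped no other list (73.3%, beside 68.9%). In the IGF2BP2 and YTHDF2 lists 6 of 14 and 5 of 13 overlapped no other (42.9% beside 53.4%, and 38.5% beside 21.4%). At H2afj the background was 8.69 times the floor in all 3 lists, and at the place where the peaks of Hist1h1d met it was 122 times for both YTHDF2 and YTHDC1. Whether the lists were called against 1 control was not tested.

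Every one of the 29 summits in clustered genes lay in the coding sequence and none lay after the stop codon. Over the whole lists the coding share was 45.6%, 47.0% and 25.7%. The clustered genes with a peak had a median of 112 annotated nucleotides past the stop codon. The longest such stretch was 4931 nucleotides in Hist1h1d, whose coding sequence has 663. The part of these lengths in the coding share was not tested. A summit past the annotated end of a gene would not have been assigned to it. The stem-loop was searched as 6 paired bases on each side of a 4-base loop, within the annotated bases after the stop codon on the sense strand. It was found in 44 of the 50 clustered genes with at least 16 annotated bases there, 22 to 59 nucleotides after the stop codon with a median of 32. The 2 most frequent forms, in 26 and 7 genes, are shown with the loop in capitals.
Stem-loop in 26 genes: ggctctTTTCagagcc
Stem-loop in 7 genes: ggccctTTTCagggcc
Of the 18 clustered genes with a peak, a stem-loop was found in 14, and the 23 summits in those genes lay 161 to 580 nucleotides upstream of it (median 284). The others, Hist1h1a, Hist1h1b, Hist1h3i and Hist2h3b, had 48, 0, 0 and 37 annotated bases after the stop codon. A stem-loop past those bases would have been missed. The annotation ran over 500 nucleotides past the stop codon in 5 of the 18 clustered genes with a peak and in 10 of the 49 without.

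Near histone summits GGAC was counted over few peaks. Within 50 bases of an exonic summit, counted on the sense strand, it was present for 3 of 13 IGF2BP2, 3 of 12 YTHDF2 and 5 of 23 YTHDC1 histone peaks (23.1%, 25% and 21.7%). Over all exonic summits in protein-coding genes the shares were 42.0%, 40.8% and 42.0%. Clustered genes alone gave 3 of 7, 2 of 8 and 2 of 14 (42.9%, 25% and 14.3%), so for IGF2BP2 they stood at the share of the list. The looser DRACH was present for 9 of 13, 9 of 12 and 14 of 23 histone summits (69.2%, 75.0% and 60.9%). Over all exonic summits its shares were 83.7%, 79.7% and 72.4%. Neither difference was tested. The histone windows were richer in G and C, with medians of 66.3%, 62.4% and 68.3% beside 53.5%, 55.0% and 59.4%. Within their coding sequences as a whole, GGAC occurred in all 12 H3 genes, 12 of 13 H4 genes, 13 of 18 H2B genes, 12 of 18 H2A genes and 4 of 6 H1 genes. The 13 H2B genes with GGAC had no peak, and the part of GGAC in which genes had a peak was not tested. GGAC and DRACH are descriptions of letters, and whether an adenosine in them was methylated is not measured here.

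The genes that supply and process histones were described from 2 lists. Of 31 genes of histone chaperones and deposition factors, some of them on the X chromosome, 20, 17 and 24 had a peak for IGF2BP2, YTHDF2 and YTHDC1, and 17 had one in all 3 lists, where 12.8%, 7.20% and 19.9% of protein-coding genes of chromosomes 1 to 19 had a peak and 5.02% were in all 3. Of 20 genes of histone mRNA processing and decay, 6, 5 and 6 had one, and 3 were in all 3 lists. The 5 with the highest fold in any list were all of the first group. Atrx, a chromatin remodeller that works with Daxx on H3.3, had folds of 39.2, 13.7 and 14.6. Supt16, a subunit of the FACT chaperone, had 27.3, 15.5 and 32.2. Srcap, the ATPase of a complex that puts H2A.Z into chromatin, had 30.6, 6.49 and 27.7. Chaf1a, a subunit of the CAF-1 complex that deposits H3 and H4 at replication, had 11.8, 10.2 and 30.3. Anp32b, an acidic nuclear protein of a histone chaperone family, had 18.2, 12.5 and 16.9. Slbp, the stem-loop binding protein, falls outside that rule and is named after its values were seen: its folds were 9.65 for IGF2BP2 and 3.92 for YTHDF2, and it had no YTHDC1 peak. Histones outside the naming rule, the linker histones H1f0, H1fx and H1foo and the centromere histone Cenpa, had no peak in any list.

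Markers of the cells were read only as peaks, which are not levels. Beside the 12.8%, 7.20% and 19.9% of all genes, 3, 2 and 5 of 8 stem and progenitor genes had a peak, with Myb at folds of 46.9, 28.5 and 22.7, while Kit itself had 1 peak, for YTHDC1 at a fold of 4.91. Cd34, Flt3 and Hoxa9 of the same list had no peak, and neither did any of 9 lymphoid genes. These lists are short, and whether any of them differs from the share of all genes was not tested. For IGF2BP2, YTHDF2 and YTHDC1, 2, 4 and 5 of 10 myeloid genes had a peak, and 1, 1 and 3 of 7 stromal and endothelial genes. The counts were 0, 0 and 1 of 7 erythroid genes and 1, 0 and 1 of 5 megakaryocyte genes. In at least 1 list, 1 erythroid, 1 megakaryocyte, 6 myeloid and 3 stromal and endothelial genes had a peak. The share of all genes for that count was not computed. The part of these marker genes in the histone results was not tested.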

How the data were processed

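Each reader's peaks come from 1 library. Per the submitters' processing notes, reads were handled with bcl2fastq 2.17, Trim Galore and HISAT2 on GRCm38; for the peak caller and its settings no source used here gives a name. The authors' deposited lists give each peak a fold (a ratio to background), a −log10 p-value and −log10 q-value, a score and the pileup signal at the summit. From these, the background under a peak was recovered as the pileup with a pseudocount of 1 added, over the fold, less the pseudocount (an assumed form), and was called at the floor within 1% of the list's lowest value. Summits were assigned to GENCODE M21 genes, exons before introns and protein-coding genes first, with ties kept. Assignment was tested on simulated positions. Overlap meant at least 1 bp. Intervals are exact binomial (Clopper-Pearson) at 95% and cover counting error only.

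Sequences and 31-base words came from the M21 transcripts, searched on either strand in genes that do not overlap the locus; a search of the genome was planned but no genome sequence was used here, so shares are lower bounds. Every member with a peak is named; of the supply lists, the 5 genes with the highest fold in any list; H1f0, H1fx, H1foo and Cenpa regardless. Members and lists were chosen with earlier results of these data known. Alternatives were other minimum values, equal list length, other assignment and overlap rules, and, chosen after seeing the data, leaving out peaks that share words with another gene. Python 3.11.15 with pandas 2.3.3, numpy 2.4.6, scipy 1.17.1 and matplotlib 3.10.9 was used. The input is not analysed as a track, and X-linked and Y-linked histone genes are outside the rule.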

Additional observations from a re-analysis of the deposited data

How the results depend on the processing

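No paired analysis was possible because each reader has 1 library. Of 98 recomputed counts, 68 stayed within 1.5 times their value. None moved with assignment by any overlap with the gene, by the peak midpoint, with an overlap of at least 50% of each peak, or with H2afx among the clustered genes. With a −log10 q of at least 5, IGF2BP2 had 9 histone peaks and 2 variant genes. The share of all genes with a peak was then 10.9%, 5.72% and 15.3% for IGF2BP2, YTHDF2 and YTHDC1. With a fold of at least 5, clustered genes with a peak fell to 4 for IGF2BP2 and 3 for YTHDF2, with 1 in all 3 lists; variant genes for YTHDC1 fell to 3, and histone peaks to 9, 7 and 19 for IGF2BP2, YTHDF2 and YTHDC1. A pileup of at least 5 left 4 clustered genes and 9 peaks for IGF2BP2, 3 and 8 for YTHDF2, and 1 clustered gene in all 3 lists. The share of all genes fell as well, to 7.96%, 3.96% and 14.4% at the fold minimum. At the pileup minimum it was 8.04%, 4.01% and 14.6%. With each list cut to its 2834 peaks of highest −log10 q, IGF2BP2 had 2 clustered and 2 variant genes with 5 peaks, and YTHDC1 had 3 and 3 with 7 peaks; 3 genes, 1 of them clustered, were in all 3 lists, and the share of all genes was 5.94%, 7.20% and 7.83%. Without peaks of which at least 50% of the words occur in another gene, clustered genes numbered 1, 3 and 3 for IGF2BP2, YTHDF2 and YTHDC1, with none (0) in all 3 lists and 3 histone genes in all. Peaks numbered 7 for IGF2BP2 and 19 for YTHDC1. No share of all genes was computed without such peaks. With summits within 50 bp in place of overlap, 4 IGF2BP2 peaks met a YTHDF2 peak. At the fold and pileup minimums YTHDC1 had 10 clustered genes each, beside 14.4% and 14.6% of all genes. Pileups of 2 to 5 fragments limit precision, and no depth is known.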
